A study of Mus musculus with 9 samples.

Results

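The RNAs described here are 3225 single-exon transcripts of mouse liver that the authors' annotation comparison placed between known genes. They are the rows of the deposited lncRNA table marked as newly assembled, with class code u (intergenic) and 1 exon, so no expression value entered the choice, and they make up 3225 of 26083 listed transcripts (12.4%). Livers came from mice of 8 weeks kept on a liquid diet for 5 weeks, with 3 libraries in each of 3 groups. Pair-fed mice (PF) received an isocaloric control diet and alcohol-fed mice (AF) the Lieber-DeCarli alcohol diet. In the third group, AF with MNA, alcohol-fed mice also received MNA (not spelled out in the labels), injected daily into the peritoneal cavity at 50 mg/kg. Strain labels read C57BL/6 for PF and AF but C57BL/7, C57BL/8 and C57BL/9 for AF with MNA. The labels do not state that each library is a separate mouse, so p-values measure only the spread between libraries, which may be technical.

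Long non-coding RNAs are transcripts without a recognisable protein product. Those between genes may start at promoters of their own, at enhancers, at a neighbour's promoter in the opposite direction, or as readthrough past the end of a gene. Without an intron, the strand of such an RNA is known only from a strand-marking library, made here with dUTP after ribosomal RNA depletion.

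Promoter sequence was known for a small set that began at a neighbouring gene's start, and 3 of these are shown because they carry the divergent arrangement. RefSeq promoter windows (GRCm38.p6, 250 bases before to 50 after a start) were reached by 78 transcripts. In 52 the transcript began inside the window and ran opposite to the gene, and in 8 it began inside on the gene's strand. The windows belong to F12 (coagulation factor XII), Aldh9a1 (an aldehyde dehydrogenase) and Kpnb1 (importin beta, of nuclear import), at chr13:55426755-55427054 (minus strand), chr1:167349741-167350040 (plus strand) and chr11:97187843-97188142 (minus strand). They read 5′ to 3′ on the gene's strand, and capitals mark the bases that the divergent transcript covers.
F12, reached by MSTRG.11755.1: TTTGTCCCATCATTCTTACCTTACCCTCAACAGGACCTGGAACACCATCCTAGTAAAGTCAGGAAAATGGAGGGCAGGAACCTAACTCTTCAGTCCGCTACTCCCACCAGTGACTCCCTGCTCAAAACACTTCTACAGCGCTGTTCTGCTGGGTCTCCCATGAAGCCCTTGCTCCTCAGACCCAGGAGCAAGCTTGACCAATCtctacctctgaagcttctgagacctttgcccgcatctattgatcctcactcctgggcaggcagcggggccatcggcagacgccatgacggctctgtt
Aldh9a1, reached by MSTRG.2707.1: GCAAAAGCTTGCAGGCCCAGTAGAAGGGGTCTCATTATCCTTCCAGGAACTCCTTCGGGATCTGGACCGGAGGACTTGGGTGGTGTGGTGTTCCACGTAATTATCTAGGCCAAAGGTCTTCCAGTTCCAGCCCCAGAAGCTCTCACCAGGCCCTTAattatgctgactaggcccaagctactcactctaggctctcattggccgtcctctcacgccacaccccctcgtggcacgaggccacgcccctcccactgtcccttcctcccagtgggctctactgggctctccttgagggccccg
Kpnb1, reached by MSTRG.8183.1: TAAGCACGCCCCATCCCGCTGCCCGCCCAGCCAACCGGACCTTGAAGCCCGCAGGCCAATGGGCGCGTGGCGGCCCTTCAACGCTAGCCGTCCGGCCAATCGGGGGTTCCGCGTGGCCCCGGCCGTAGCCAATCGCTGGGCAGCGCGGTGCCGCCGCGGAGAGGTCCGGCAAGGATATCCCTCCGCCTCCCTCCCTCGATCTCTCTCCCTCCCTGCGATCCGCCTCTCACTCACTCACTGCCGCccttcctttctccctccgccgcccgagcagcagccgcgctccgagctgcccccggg
The transcripts covered 203, 156 and 244 bases of these windows, which held 7, 9 and 35 CpG dinucleotides. Over the 52 divergent transcripts the median window held 22 CpG, against 7 over all 32851 windows. TATAAA on either strand stood in 2 of the 52 (3.85%) against 13.6% of all windows, and GGGCGG on either strand in 24 (46.2%) against 35.7%. These are letters in a window and say nothing about bound factors. The 32851 windows were not matched to the divergent set by gene expression, and the part of expression was not tested.

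The F12 neighbour MSTRG.11755.1 (1564 bases) began 59 bases from the annotated F12 gene. Its FPKM (fragments per kilobase and per library depth) was 1.5, 1.78 and 2.08 for the PF livers, 0.945, 0.257 and 1.59 for the AF livers and 0.538, 0.803 and 0.844 for the MNA-treated livers. AF and PF overlapped (log2 ratio of group means -0.94, unadjusted p = 0.108). F12 itself stood at 125.0 ± 8.7, 122 ± 7.75 and 142 ± 15.1 FPKM (SD, n = 3) in PF, AF and AF with MNA. MSTRG.2707.1, beside Aldh9a1, was above 0 in 6 libraries at up to 1.86 FPKM, and MSTRG.8183.1, beside Kpnb1, in 6 at up to 1.65 FPKM. Of the 42 divergent transcripts whose partner gene had a value, 35 partners were at 1 FPKM or more in PF. Of 40 divergent transcripts tested between AF and PF, 2 had an unadjusted limma p under 0.05, against 2.62% of all 18310 lncRNA transcripts tested, and so few members give no comparison with that share.

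The intergenic code did not hold for every member against GENCODE M21 (GRCm38), in which 7841 of the 7879 known lncRNAs of the table were found, 7706 at the same strand, start and end. In that release 337 members lay in or across a gene of their own strand and 53 one of the other strand, and 32 were wholly inside an exon. MSTRG.14530.1 (chr14:89898765-89899044, minus strand) matched an exon of Gm10110, a transcribed processed pseudogene, and is shown whole as a member present in all 9 libraries.
MSTRG.14530.1: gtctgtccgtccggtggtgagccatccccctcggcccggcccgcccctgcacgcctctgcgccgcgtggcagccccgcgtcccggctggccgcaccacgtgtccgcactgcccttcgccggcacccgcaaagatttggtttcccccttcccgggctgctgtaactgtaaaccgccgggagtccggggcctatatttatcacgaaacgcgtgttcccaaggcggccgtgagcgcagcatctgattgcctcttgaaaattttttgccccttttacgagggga
Its FPKM was 2.51, 2.45 and 2.28 for the PF livers, 1.61, 3.0 and 1.65 for the AF livers and 2.29, 1.93 and 2.51 for the MNA-treated livers, with the 3 groups overlapping. None of the 32 held AATAAA or ATTAAA, the common polyadenylation signals, in its last 50 bases. An expected share was not computed, and the ends are those of the assembly, so this does not show how the RNAs end. No genome sequence was used here, so other members are given by position alone.

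The transcripts were short and spread over the genome. Lengths ran from 201 to 29154 bases with a median of 329, against 1229 for known lncRNAs and 1457 for the 104 spliced intergenic transcripts. Transcripts assembled inside introns and antisense to genes were nearly as short, with medians of 358 and 439. The paper's methods set a minimum length, which bounds the lower end. Under 300 bases were 1378 (42.7%) and at least 2000 bases 168 (5.21%). The plus strand held 1629 and the minus strand 1596, and every autosome, X and Y held some. On CPC and CNCI, coding-potential scores on which lower means less coding, the medians were -1.165 and -0.00696. The paper's methods filter on both scores, and no member scored above -1.0 on CPC and -0.00041 on CNCI. Transcripts assembled inside introns had similar medians, -1.172 and -0.0041.

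A pair of libraries stood apart. Members above 0 FPKM numbered 850, 1003 and 1055 in the PF libraries, 960, 1143 and 1614 in the AF libraries, and 1580, 822 and 869 with MNA. AF replicate 3 and AF with MNA replicate 1 thus listed 50.05% and 49.0% of the members and the others 25.5% to 35.4%. Transcripts assembled inside introns were also most often above 0 in that pair (48.2% and 49.1%, against 24.4% to 32.7%), while known lncRNAs ranged from 58.1% to 61.5%. Coverage per FPKM, which grows with the number of aligned reads, was 7.24 and 8.3 in the pair and 5.84 to 7.98 elsewhere, and the library at 7.98, AF with MNA replicate 2, had the fewest members above 0. The part of depth or RNA quality was not tested.

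**Figure D1:**
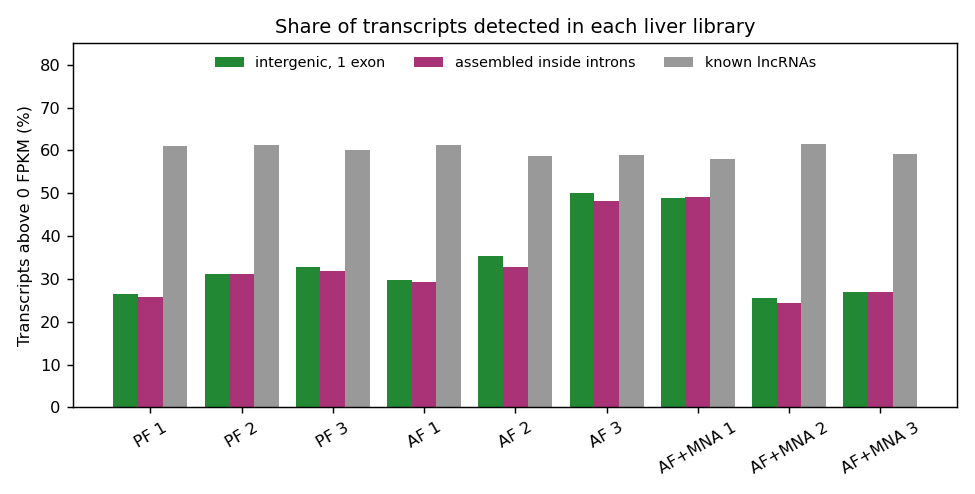
Bars give the share of transcripts above 0 FPKM (vertical axis, percent) in each of the 9 liver libraries, for the single-exon intergenic transcripts, transcripts assembled inside introns and known lncRNAs. AF replicate 3 and AF with MNA replicate 1 list 50.05% and 49.0% of the intergenic transcripts, and known lncRNAs stay between 58.1% and 61.5%.

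Few members recurred across livers. Above 0 in 1 library were 791 (24.5%), in 2 libraries 785, and in all 9 libraries 61 (1.89%), against 28.8% of known lncRNAs and 61.5% of spliced intergenic transcripts in all 9. Transcripts assembled inside introns recurred as rarely, with 24.7% above 0 in 1 library and 1.39% in all 9. Of members under 300 bases 39.8% appeared in 1 library, and of those of 1000 bases or more 5.98%. A pair of libraries of one group shared 25.01% to 29.4% of the members above 0 in either. Taking 302 aligned bases, the commonest value, as 1 read pair, the median member above 0 rested on 5.0 to 12.3 read pairs per library. A 0 therefore means not detectable at this depth. The median of the mean FPKM was 0.244, 90 members (2.79%) reached a mean of 1 FPKM, and the 10 highest took 10.5% of the summed FPKM.

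The most abundant, MSTRG.28991.1 (chr4:8393607-8394015, plus strand, 409 bases), lay 141629 bases from the nearest protein-coding gene, Rab2a, a GTPase of vesicle traffic. Its FPKM was 25.1, 26.3 and 19.3 for the PF livers, 28.9, 49.4 and 30.6 for the AF livers and 24.9, 38.8 and 33.5 for the MNA-treated livers. All AF values exceeded all PF values, but the log2 ratio of 0.62 was short of the fold that the methods ask (unadjusted p = 0.0466). MSTRG.9259.1 (chr12:19244044-19244258, plus strand, 215 bases) was either high or listed at 0, with 24.7, 43.1 and 34.9 for the PF livers, 0, 0 and 52.6 for the AF livers and 0, 45.5 and 60.8 for the MNA-treated livers. AF overlapped PF, and its log2 ratio of -0.96 did not pass the threshold (unadjusted p = 0.0299 and adjusted p = 0.598 in limma). AF with MNA overlapped AF too (unadjusted p = 0.28 and adjusted p = 0.591 in limma).

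Other abundant members lay close to protein-coding genes. MSTRG.21577.1 (chr19:4820964-4821252, plus strand, 289 bases) lay 4114 bases past the end of Ccs, the copper chaperone of superoxide dismutase, on the other strand, with FPKM of 14.3, 10.3 and 18.4 for the PF livers, 9.84, 11.7 and 14.4 for the AF livers and 8.21, 14.0 and 16.0 for the MNA-treated livers. The groups overlapped, while Ccs stood at 12.2 ± 1.07, 5.75 ± 1.46 and 10.8 ± 2.18 FPKM in PF, AF and AF with MNA (SD, n = 3), with an AF against PF adjusted p = 0.114 in limma. MSTRG.2595.1 (chr1:164223770-164224119, plus strand, 350 bases) followed F5, coagulation factor V, at 3493 bases on its strand, with FPKM of 10.7, 11.8 and 11.9 for the PF livers, 8.93, 5.34 and 11.3 for the AF livers and 6.96, 8.25 and 8.42 for the MNA-treated livers. AF and PF overlapped, and F5 stood at 93.4 ± 3.6, 79.4 ± 4.29 and 93.7 ± 8.59 FPKM. MSTRG.7293.1 (chr11:69062894-69063118, minus strand, 225 bases), 1316 bases past Borcs6, a gene of lysosome positioning, had 16.7, 6.45 and 12.3 for the PF livers, 8.64, 6.67 and 5.09 for the AF livers and 6.22, 3.48 and 0 for the MNA-treated livers, and passed no threshold.

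AF replicate 2, the highest AF library for MSTRG.28991.1, also gave the highest value of 4 others of the 10. MSTRG.44077.1 (chr9:48521204-48521479, minus strand, 276 bases) had FPKM of 0, 3.81 and 1.55 for the PF livers, 8.86, 42.1 and 4.45 for the AF livers and 8.92, 10.9 and 8.62 for the MNA-treated livers. MSTRG.47256.1 (chrX:144276404-144276637, minus strand, 234 bases) had 0.94, 2.96 and 0 for the PF livers, 6.0, 44.4 and 4.42 for the AF livers and 7.63, 4.93 and 6.32 for the MNA-treated livers. MSTRG.37998.1 (chr7:28260531-28260913, minus strand, 383 bases), 6968 bases from Eid2, had 1.67, 2.29 and 1.47 for the PF livers, 4.57, 31.5 and 4.18 for the AF livers and 2.95, 4.14 and 6.8 for the MNA-treated livers. In all 3 every AF library exceeded every PF library. MSTRG.32035.1 (chr5:30206441-30206815, plus strand, 375 bases) began 719 bases from Adgrf3, an adhesion receptor gene, in the opposite direction, and had 0.502, 0 and 0.804 for the PF livers, 4.34, 30.2 and 2.29 for the AF livers and 0 throughout the MNA-treated livers. Without AF replicate 2 the coefficients between AF and PF were 1.67 for MSTRG.44077.1, 1.64 for MSTRG.47256.1 and 1.59 for MSTRG.32035.1, still past the threshold. In the unmoderated fit with the covariate of the Ballgown tool none of these passed with all libraries in (unadjusted p = 0.102, 0.0839 and 0.0579). AF replicate 2 also had the lowest summed FPKM of 6 hepatocyte markers (18617, against 21453 to 26799 elsewhere) and the highest of 6 macrophage markers (109.7 against 59.55 to 98.91) and of 3 red cell genes (409.3 against 164.3 to 278.9). The part of these cells was not tested, and in whole liver fewer cells of a type and less RNA per cell cannot be told apart. MSTRG.10925.1 (chr12:120028654-120028981, minus strand, 328 bases), 7408 bases from Tmem196, had 3.49, 1.9 and 3.12 for the PF livers, 21.2, 4.27 and 8.59 for the AF livers and 3.38, 3.02 and 1.92 for the MNA-treated livers, with AF above both other groups and replicate 1 highest.

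**Figure D2:**
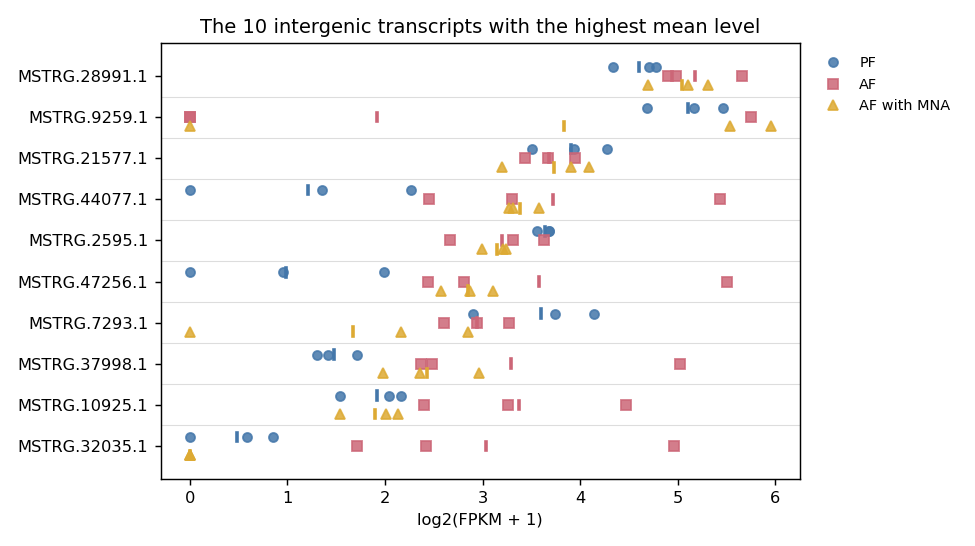
Points give log2(FPKM + 1) (horizontal axis) of the 10 most abundant intergenic transcripts in each PF, AF and AF with MNA library, and short bars give group means. MSTRG.44077.1, MSTRG.47256.1, MSTRG.37998.1 and MSTRG.32035.1 each have 1 far AF point, replicate 2, and MSTRG.9259.1 splits into libraries at 0 and libraries far above it.

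Outside every M21 gene lay 2835 members, at a median of 4572 bases from the nearest. Within 5 kb, 495 lay downstream on the gene's strand, 483 upstream on the opposite strand (divergent), 271 upstream on the same strand and 259 downstream on the opposite strand (convergent), and 160 were over 50 kb from any gene. Of the members under 2 kb from a gene, 69 of 309 divergent, 30 of 143 upstream on the same strand and 30 of 150 convergent ones lay within 250 bases of it. Downstream on the same strand 39 lay under 2 kb and 358 from 2 to 4 kb, against 150 and 81 on the opposite strand. Such annotation tools give a close same-strand follower another code, which the table did not hold, and the part of that rule in the edge was not tested.

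**Figure D3:**
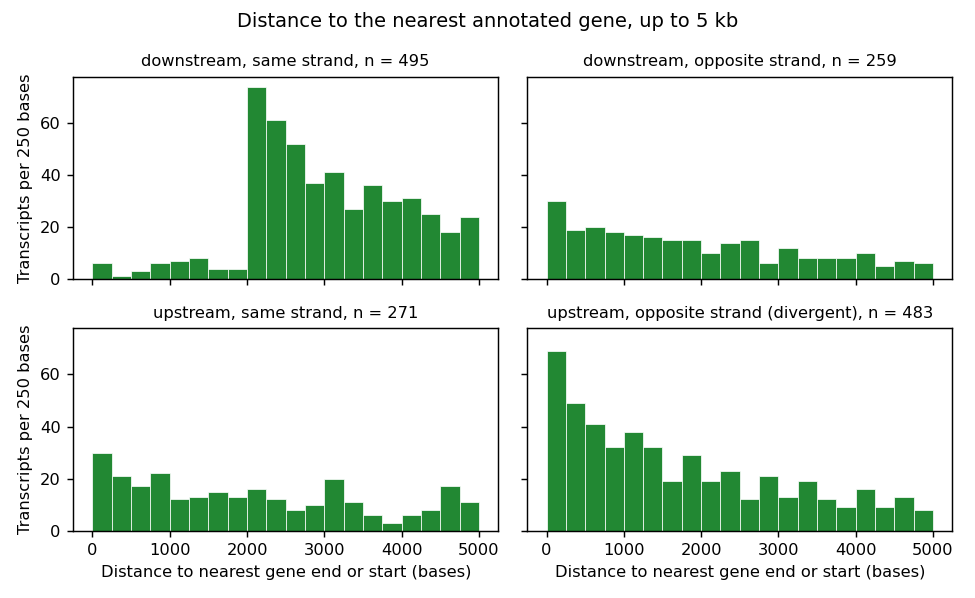
Bars count transcripts per 250 bases (vertical axis) by distance in bases to the nearest M21 gene (horizontal axis) for the 4 arrangements within 5 kb. The same-strand downstream panel (n = 495) is nearly empty below 2 kb, and the divergent panel (n = 483) is fullest at the gene start.

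Nearest genes had a higher median level than gene entries at large in every position class, a difference given without a test. Each member contributed its nearest gene, so a gene nearest to several members counted several times in the medians and shares by position. For members inside a gene of their strand, 172 values came from at most 141 genes. Over 26345 gene entries the median was 0.368 FPKM, with 37.9% at 1 FPKM or more. Genes that held a member on their strand stood at 3.96 FPKM (76.2% at 1 FPKM or more), those followed by a member on their strand at 3.41 (83.4%) and those with a divergent member at 3.38 (77.4%). Genes that held a member on the other strand stood at 1.32 FPKM (81.8%), those 5 to 50 kb away at 1.28 (53.9%) and those over 50 kb away at 1.18 (50.0%). Same-strand upstream and convergent members had neighbours at 0.481 (43.9%) and 0.447 FPKM (43.1%). The members' own medians ranged only from 0.235 to 0.299 FPKM over all position classes. Between AF and PF, 140 of 292 downstream members and 175 of 320 divergent members had a coefficient of the same sign as their gene. So did 43 of 87 convergent members, 44 of 89 upstream on the same strand, 59 of 117 and 11 of 18 inside a gene on its strand and on the other, and 211 of 439 from 5 to 50 kb away. Beyond 50 kb it was 34 of 47 (72.3%), and 31 of 46 (67.4%) between AF with MNA and AF, where the other classes ranged from 46.7% to 52.1%. The 160 members there had 62 nearest genes among them, so pairs share genes as well as libraries, and these counts are given without a test.

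The 3 longest members varied within groups. MSTRG.19889.1 (chr17:81354690-81383843, minus strand, 29154 bases), inside Slc8a1, a sodium-calcium exchanger gene, had FPKM of 1.24, 3.6 and 2.22 for the PF livers, 0.794, 3.3 and 0.555 for the AF livers and 0.633, 0.168 and 1.3 for the MNA-treated livers. MSTRG.7974.1 (chr11:86849815-86871523, minus strand, 21709 bases) and MSTRG.7973.1 (chr11:86828542-86846310, minus strand, 17769 bases) lay 42069 and 20796 bases upstream of Dhx40, a helicase gene. The first had 0.658, 2.33 and 1.43 for the PF livers, 0.613, 5.65 and 1.08 for the AF livers and 2.52, 0.961 and 3.15 for the MNA-treated livers, and the second 0.184, 1.14 and 0.471 for the PF livers, 0.946, 2.43 and 1.19 for the AF livers and 0.00817, 0.372 and 1.69 for the MNA-treated livers. AF and PF overlapped in all 3. By RefSeq, MSTRG.7974.1 also covered whole promoter windows of Gm38942, on the other strand, and of Gm33742, on its own strand.

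Members often lined up in stretches. Joining same-strand neighbours within 5 kb put 1450 members (44.96%) into 543 stretches, 9 of them with 8 members or more, while joins up to 2 kb gave 0 such stretches and up to 10 kb 22. A stretch's level here is the length-weighted mean FPKM, tested by a two-sided exact permutation test whose smallest p is 0.1 for 3 against 3. The longest, at chr16:93239655-93294483 (minus strand), held 13 members over 54829 bases, 48021 bases from the nearest gene, 1810053B23Rik, a processed transcript on the same strand. Its level was 0.0306, 0.0815 and 0.0802 for the PF livers, 1.58, 0.318 and 0.855 for the AF livers and 0.615, 0.0205 and 0.192 for the MNA-treated livers. AF and PF did not overlap (log2 ratio 3.84, exact p = 0.1), and 3 of its 12 tested members passed the threshold (background 2.47% of all lncRNA transcripts tested), members that share one stretch and are not independent. The largest of these, MSTRG.17816.1 (10837 bases), had 0.0368, 0.109 and 0.106 for the PF livers, 1.96, 0.478 and 0.989 for the AF livers and 1.16, 0.0279 and 0.246 for the MNA-treated livers. The gene 1810053B23Rik itself stood at 0.507 ± 0.352, 2.22 ± 1.21 and 1.74 ± 1.42 FPKM (SD, n = 3), with an AF against PF log2 ratio of 2.13 (unadjusted p = 0.0193 and adjusted p = 0.337 in limma).

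The stretch at chr14:66958732-66979147 (minus strand, 8 members) lay 6092 bases from Bnip3l, a receptor for the removal of mitochondria, on the same strand, and spans the pseudogene Gm9570 and the snoRNA gene Gm24258 of the other strand. Its level was 0.0176, 0.0118 and 0.109 for the PF livers, 0.765, 0.676 and 1.25 for the AF livers and 0.307, 0.103 and 0.203 for the MNA-treated livers. AF lay above PF (log2 ratio 4.28) and AF with MNA below AF (-2.13), both without overlap and both with exact p = 0.1. Both comparisons use the same AF libraries, so high AF values enter both and the results are not independent. Bnip3l stood at 6.0 ± 1.14, 7.98 ± 2.75 and 6.7 ± 0.692 FPKM (SD, n = 3). The stretch at chr8:39650828-39672214 (plus strand, 8 members), 8155 bases from Msr1, the macrophage scavenger receptor gene, had 0.0607, 0.00682 and 0.0626 for the PF livers, 0.115, 0.129 and 0.895 for the AF livers and 0.895, 0.151 and 0.252 for the MNA-treated livers. Its high values were those of AF replicate 3 and AF with MNA replicate 1, and the other AF values still exceeded PF (exact p = 0.1). In the other 6 stretches AF and PF overlapped, among them that of 9 members inside Foxn3, a forkhead gene, at 0.47 ± 0.2, 0.565 ± 0.228 and 0.386 ± 0.207 FPKM (SD, n = 3). Of its 7 tested members 2 passed as lower in AF (background 1.06%), members that share one stretch and are not independent. Both were at 0 throughout AF, so they met any fold criterion and passed the filter only through PF. MSTRG.10504.1 had 1.61, 0.742 and 0.613 for the PF livers, 0 throughout the AF livers and 1.97, 0 and 0 for the MNA-treated livers (unadjusted p = 0.0249 in limma), and MSTRG.10531.1 had 0.819, 0.414 and 1.45 for the PF livers, 0 throughout the AF livers and 0 throughout the MNA-treated livers (unadjusted p = 0.0383 in limma). Foxn3 stood at 4.32 ± 1.11, 3.76 ± 1.3 and 4.8 ± 0.655 FPKM.

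**Figure D4:**
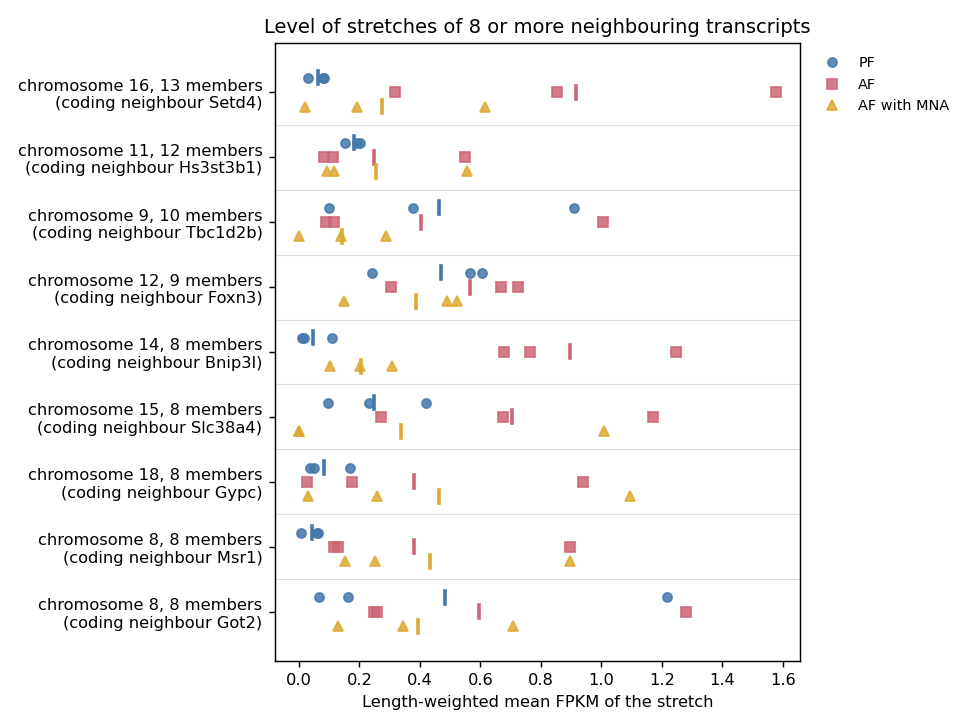
Points give the length-weighted mean FPKM (horizontal axis) of the 9 stretches with 8 members or more in each PF, AF and AF with MNA library, and short bars give group means. All AF points lie above all PF points in the chromosome 16, the Bnip3l and the Msr1 stretch.

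The comparison of alcohol-fed with pair-fed livers asked which members differed with the diet. Of 2572 tested members (mean FPKM of 0.1 or more), 65 (2.53%) passed the threshold of the methods (p under 0.05 before adjustment, and a log2 ratio of group means above 1 or below -1), against 2.47% of 18310 tested lncRNA transcripts, a share near that background. In AF 41 were higher (1.59%; background 1.41%) and 24 lower (0.933%; background 1.06%). In limma 0 members had an adjusted p under 0.05 (background 0.0164%; lowest among members 0.598, the value of each member named as past the threshold) and 68 an unadjusted one (2.64%; background 2.62%), and without moderation, with the covariate of the Ballgown tool, these counts were 0 and 91 (3.54%, against 4.63% of all transcripts in that fit). Groups did not overlap for 93 members with AF higher (3.62%; background 3.51%) and 41 with AF lower (1.59%; background 2.73%). The median coefficient was 0.337 on log2(FPKM + 1), against 0.14 over all tested transcripts. This fit includes AF replicate 3, of the pair of libraries that stood apart, and the part of that library was not tested. Leaving out a library moved the split for all lncRNA transcripts as well. Without PF replicate 1, 23 members were higher (0.913%) and 31 lower (1.23%), against 0.93% and 1.34% of all transcripts tested. Without PF replicate 2, 25 were higher (1.03%) and 21 lower (0.866%), against 1.07% and 1.09%. Without PF replicate 3, 40 passed in all (1.67%, against 2.02%). Without AF replicate 1, 57 were higher (2.34%) and 7 lower (0.287%), against 2.23% and 0.702%. Without AF replicate 2 it was 78 (3.26%) and 12 (0.501%), against 2.49% and 0.734%, and without AF replicate 3 it was 53 (2.76%) and 29 (1.51%), against 2.17% and 1.46%.

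Several members higher in AF were listed at 0 in every PF library, which gives no fold. Of the 65 past the threshold 18 (27.7%) were at 0 throughout 1 group, against 41.9% of all transcripts past it, and of the 25 between AF with MNA and AF 12 (48.0%, against 45.2%). Such members meet any fold criterion and pass the filter only through the other group. MSTRG.14279.1 (chr14:66975108-66976451, minus strand, 1344 bases), in the Bnip3l stretch, had FPKM of 0 throughout the PF livers, 1.65, 1.32 and 1.73 for the AF livers and 0.471, 0 and 0.572 for the MNA-treated livers (coefficient 1.35 ± 0.31 SE, unadjusted p = 0.0016 in limma). The MNA-treated livers lay below AF without overlap (log2 ratio -2.17, coefficient -0.95 ± 0.34 SE, unadjusted p = 0.0167 in limma, but unadjusted p = 0.0558 without AF replicate 1 and 0.0723 without AF with MNA replicate 2). MSTRG.41222.1 (chr8:39653741-39654072, plus strand, 332 bases), in the Msr1 stretch, had 0 throughout the PF livers, 2.13, 0.803 and 1.55 for the AF livers and 1.39, 0 and 0.935 for the MNA-treated livers (coefficient 1.28 ± 0.35 SE, unadjusted p = 0.00438 in limma). MSTRG.40650.1 (chr8:3046953-3049329, plus strand, 2377 bases) lay 6965 bases from the pseudogene Gm44634 and 72732 from the nearest protein-coding gene, Insr, of the insulin receptor. Its FPKM was 0 throughout the PF livers, 1.47, 1.22 and 1.15 for the AF livers and 1.43, 0 and 0.67 for the MNA-treated livers (coefficient 1.19 ± 0.32 SE, unadjusted p = 0.00444 in limma). With MNA both ranged from 0 up to the AF level.

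MSTRG.15566.1 (chr15:68312890-68313197, minus strand, 308 bases) lay 2589 bases from the pseudogene Gm10240 and 54034 from the nearest protein-coding gene, Zfat. Its FPKM was 0.431, 0 and 0 for the PF livers, 1.91, 1.43 and 4.42 for the AF livers and 0.059, 0 and 0.672 for the MNA-treated livers (log2 ratio 4.17, coefficient 1.58 ± 0.38 SE, unadjusted p = 0.00196 in limma). MSTRG.33067.1 (chr5:94520686-94521008, plus strand, 323 bases), 5279 bases from Gm3139, had 0.103, 0.642 and 0.0952 for the PF livers, 2.8, 10.3 and 1.49 for the AF livers and 2.63, 2.56 and 3.15 for the MNA-treated livers (log2 ratio 4.12, coefficient 1.92 ± 0.50 SE, unadjusted p = 0.00369 in limma). The last was again highest in AF replicate 2, without which its coefficient was 1.29 (unadjusted p = 0.0114 in limma). Of the abundant members, MSTRG.44077.1 (log2 ratio 3.37, coefficient 2.52 ± 0.74 SE, unadjusted p = 0.00689 in limma), MSTRG.47256.1 (log2 ratio 3.81, coefficient 2.60 ± 0.75 SE, unadjusted p = 0.00635 in limma), MSTRG.32035.1 (log2 ratio 4.82, coefficient 2.55 ± 0.69 SE, unadjusted p = 0.00444 in limma), MSTRG.37998.1 (log2 ratio 2.89, coefficient 1.81 ± 0.60 SE, unadjusted p = 0.013 in limma) and MSTRG.10925.1 (log2 ratio 2.00, coefficient 1.46 ± 0.45 SE, unadjusted p = 0.00896 in limma) passed as well. In the unmoderated fit the last 2 had unadjusted p = 0.109 and 0.144. Without their highest AF library, replicate 2 for MSTRG.37998.1 and replicate 1 for MSTRG.10925.1, the coefficients were 0.95 and 0.91, still past the threshold.

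Most members named as lower in AF were near 1 to 2 FPKM in PF and at or near 0 in AF. MSTRG.6745.1 (chr11:48879337-48879909, plus strand, 573 bases) had FPKM of 1.5, 1.8 and 1.41 for the PF livers, 0, 0.17 and 0 for the AF livers and 0.635, 0 and 0.828 for the MNA-treated livers (log2 ratio -4.79, coefficient -1.28 ± 0.31 SE, unadjusted p = 0.00222 in limma). MSTRG.16007.1 (chr15:85655200-85655526, plus strand, 327 bases), inside the lincRNA gene Gm49539, had 1.56, 1.36 and 1.35 for the PF livers, 0 throughout the AF livers and 0 throughout the MNA-treated livers (unadjusted p = 0.00248). MSTRG.14810.1 (chr15:6523310-6523752, plus strand, 443 bases), inside Fyb, an adaptor gene of T cells and myeloid cells, had 1.49, 1.92 and 1.65 for the PF livers, 0, 0.496 and 0 for the AF livers and 1.35, 0 and 0 for the MNA-treated livers (log2 ratio -3.35, coefficient -1.23 ± 0.32 SE, unadjusted p = 0.00364 in limma). Fyb itself stood at 1.13 ± 0.434 FPKM in PF and 0.897 ± 0.413 in AF (SD, n = 3), with an adjusted p = 0.819 in limma. MSTRG.20392.1 (chr18:20234657-20235048, plus strand, 392 bases), 12292 bases from Dsg1c, a desmosome gene, had 1.41, 1.43 and 1.94 for the PF livers, 0.12, 0.125 and 0 for the AF livers and 3.39, 0 and 0 for the MNA-treated livers (unadjusted p = 0.00248). For MSTRG.14810.1 and MSTRG.20392.1 the MNA-treated library above 0 was replicate 1, of the pair that stood apart.

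Other members lower in AF lost the threshold when a single library was left out. MSTRG.24462.1 (chr2:73595050-73595571, plus strand, 522 bases) had FPKM of 2.08, 2.19 and 1.66 for the PF livers, 0, 0 and 1.5 for the AF livers and 0, 0.214 and 0 for the MNA-treated livers, and without AF replicate 1 its unadjusted limma p went from 0.0184 to 0.0667, without AF replicate 2 to 0.0664, without PF replicate 1 to 0.0533 and without PF replicate 2 to 0.0595. MSTRG.20940.1 (chr18:53958507-53959197, plus strand, 691 bases), 2959 bases downstream of Csnk1g3, a casein kinase gene, had 0.352, 1.59 and 1.52 for the PF livers, 0 throughout the AF livers and 1.73, 0 and 0 for the MNA-treated livers, and its p of 0.0214 became 0.103 without PF replicate 2 and 0.0984 without PF replicate 3 (limma, unadjusted). MSTRG.11438.1 (chr13:37596939-37598358, minus strand, 1420 bases) had 1.91, 1.28 and 3.28 for the PF livers, 0.979, 0.464 and 0.617 for the AF livers and 0.576, 0.513 and 0.599 for the MNA-treated livers, and its p of 0.0233 was lost without PF replicate 3 (unadjusted p = 0.125) and without AF replicate 2 (unadjusted p = 0.0621). MSTRG.36744.1 (chr6:117294624-117299147, minus strand, 4524 bases) lay 80558 bases from the pseudogene Rpl28-ps4 and 113257 from the nearest protein-coding gene, the chemokine gene Cxcl12. Its FPKM was 0.817, 2.24 and 0.869 for the PF livers, 0.0625, 0.117 and 0.251 for the AF livers and 0.434, 0.584 and 0.237 for the MNA-treated livers, and its unadjusted limma p of 0.0234 became 0.156 without PF replicate 2 and 0.0605 without AF replicate 1.

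**Figure D5:**
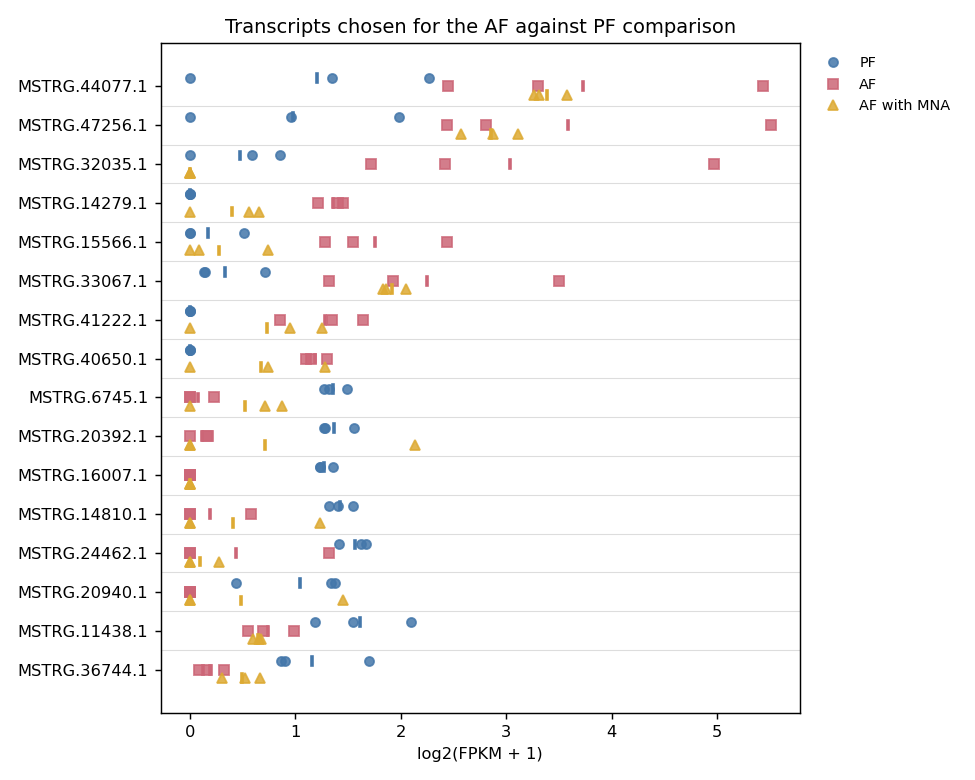
Points give log2(FPKM + 1) (horizontal axis) in each PF, AF and AF with MNA library for the 8 transcripts higher and the 8 lower in AF with the smallest p among those past the threshold without overlap; short bars give group means. The choice itself separates AF from PF, and AF with MNA, which it did not use, lies at 0 in all 3 libraries for MSTRG.32035.1 and MSTRG.16007.1.

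Some summed cell markers separated AF from PF. Summed FPKM did not overlap for sinusoidal endothelium (24.02 to 28.46 in PF, 28.9 to 40.17 in AF), cholangiocytes (3.29 to 4.36, 4.87 to 9.13) and neutrophils (0.23 to 0.81, 0.84 to 1.44), each of 6 genes. The minimum mean of 0.5 FPKM left 6, 2 and 0 of these to be tested in limma, so the neutrophil genes had no test, and 0 of the endothelial and cholangiocyte genes tested passed the threshold. Hepatocyte, macrophage, stellate cell, lymphocyte and red cell sums overlapped, with 1 of 6 macrophage genes and 1 of 2 red cell genes tested past the threshold, against 4.3% of all genes tested. With MNA the neutrophil sum (0.26 to 0.68) lay below AF, and 0 of the marker genes tested passed, against 1.98% of all genes. No marker found was at 0 in every library. The part of any cell type in the members' values was not tested.

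The comparison of MNA-treated with untreated alcohol-fed livers shares its AF libraries with the comparison above. Of 2844 tested members 25 (0.879%) passed the threshold, against 1.75% of 19752 transcripts. With MNA 4 were higher (0.141%; background 0.633%) and 21 lower (0.738%; background 1.11%). In limma 0 had an adjusted p under 0.05 (background 0.0%, and 0.591 for each member named as past the threshold) and 25 an unadjusted one (0.879%; background 1.81%), and in the unmoderated fit these counts were 0 and 38 (1.34%, against 2.44% of all transcripts in that fit). Groups did not overlap for 31 members with MNA higher (1.09%; background 1.84%) and 72 with MNA lower (2.53%; background 3.0%). The median coefficient was -0.234, against -0.069 over all tested transcripts. AF replicate 3 and AF with MNA replicate 1 are on opposite sides here, and without both 8 members (0.495%) passed as higher and 39 (2.41%) as lower, against 1.07% and 2.02% of all transcripts. Without AF replicate 1 alone 38 passed (1.4%, against 1.95%), without AF replicate 2 48 (1.81%, against 2.23%) and without AF replicate 3 41 (1.84%, against 2.11%). The split by direction was not kept when 1 of 2 MNA-treated libraries was left out. Without AF with MNA replicate 2 11 members passed as higher and 11 as lower (0.39% each, against 0.953% and 0.586% of all transcripts), and without replicate 3 of that group 9 (0.324%, against 0.694%) and 13 (0.468%, against 0.658%).

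The smallest p belonged to MSTRG.32035.1, divergent to Adgrf3 and listed at 0 in all MNA-treated libraries (coefficient -3.03 ± 0.66 SE, unadjusted p = 0.000847 in limma). AF replicate 2 held the highest of its AF values, without that library the coefficient was -2.07, and the unmoderated fit did not call it (unadjusted p = 0.0539). MSTRG.35859.1 (chr6:71386068-71386339, minus strand, 272 bases), 2295 bases downstream of Rmnd5a, a ubiquitin ligase subunit gene, had FPKM of 0.733, 0.659 and 0 for the PF livers, 2.23, 1.53 and 1.23 for the AF livers and 0, 0 and 0.19 for the MNA-treated livers (log2 ratio -4.71, coefficient -1.31 ± 0.34 SE, unadjusted p = 0.00297 in limma). Rmnd5a stood at 14.6 ± 0.538 FPKM in AF and 13.7 ± 2.95 with MNA (SD, n = 3). MSTRG.15566.1 and MSTRG.10925.1, with values above, had log2 ratios of -3.41 and -2.03 (unadjusted p = 0.00336 and 0.00638). Without AF replicate 3 and AF with MNA replicate 1 the p of MSTRG.10925.1 was 0.0641 in limma, and in the unmoderated fit with all 6 libraries it was 0.137.

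MSTRG.2831.1 (chr1:172845719-172845989, plus strand, 271 bases) lay 2081 bases from the snRNA gene Gm24817. The nearest protein-coding gene was Crp, of C-reactive protein, and MSTRG.2831.1 lay 12688 bases downstream of it on its strand. The FPKM of MSTRG.2831.1 was 0.163, 0 and 0.543 for the PF livers, 2.35, 0.673 and 1.46 for the AF livers and 0.134, 0 and 0 for the MNA-treated livers, with AF above both other groups. For AF against PF the log2 ratio was 2.67 (coefficient 0.98 ± 0.37 SE, unadjusted p = 0.0253 in limma). For AF with MNA against AF it was -5.06 (coefficient -1.20 ± 0.38 SE, unadjusted p = 0.00937 in limma, and unadjusted p = 0.0739 without AF replicate 1). Crp stood at 1.24 ± 0.431, 5.08 ± 2.2 and 3.5 ± 1.98 FPKM in PF, AF and AF with MNA (SD, n = 3), with an AF against PF adjusted p = 0.147 in limma.

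Of the 4 members higher with MNA, 2 did not overlap AF. MSTRG.17460.1 (chr16:58660194-58660515, minus strand, 322 bases) lay 4950 bases from the lincRNA gene Gm49701 and 9777 from the nearest protein-coding gene, Cpox, of haem synthesis. Its FPKM was 0 throughout the PF livers, 0 throughout the AF livers and 3.79, 0.856 and 0.928 for the MNA-treated livers (coefficient 1.37 ± 0.43 SE, unadjusted p = 0.00918 in limma, and unadjusted p = 0.062 without AF with MNA replicate 1). MSTRG.19405.1 (chr17:57197025-57199775, minus strand, 2751 bases), 2848 bases upstream of Tnfsf14, a cytokine gene, had 0, 0.521 and 0.691 for the PF livers, 0.633, 0 and 1.73 for the AF livers and 2.0, 3.17 and 2.09 for the MNA-treated livers (log2 ratio 1.62, coefficient 1.04 ± 0.39 SE, unadjusted p = 0.0223 in limma, and unadjusted p = 0.078 without AF replicate 2 and 0.0864 without AF with MNA replicate 2).

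Members seen in a single library came mostly from the pair that stood apart, with 246 of 791 in AF replicate 3 and 244 in AF with MNA replicate 1. The highest were MSTRG.47528.1 (chrY:1042733-1042997) at 3.23 FPKM and MSTRG.20017.1 (chr17:88071057-88071382), 5766 bases from Fbxo11, at 3.2 FPKM, both in AF replicate 3. MSTRG.24798.1 (chr2:103095061-103095373), 2417 bases downstream of Apip, reached 3.14 FPKM in AF with MNA replicate 1.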

How the data were processed

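Strand-specific, ribosomal RNA-depleted liver libraries (3 PF, 3 AF, 3 AF with MNA) were grouped by their sample labels. The submitters' processing notes name cutadapt 1.9, StringTie 1.3.4, HISAT2, TopHat, FastQC and edgeR without roles, and genome build and annotation are not given in the sources used here. FPKM values of genes and transcripts and the read coverage signal of transcripts were deposited by the authors for each library. The CPC and CNCI score of each assembled transcript was also deposited by the authors. Circular RNA values were not used here.

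From these, log2(FPKM + 1) was fitted with limma 3.58.1 in R 4.3.3 (empirical Bayes with trend) over every lncRNA transcript averaging 0.1 FPKM or more in the 6 libraries at hand, and over genes averaging 0.5 FPKM or more, each with Benjamini-Hochberg adjustment over all rows fitted. A transcript passed the threshold of the methods at p under 0.05 before adjustment and a log2 ratio of mean FPKMs above 1 or below -1. The code was tested on simulated data. Positions refer to GENCODE M21 and RefSeq promoters of GRCm38.p6, and the nearest gene was matched in the gene table for 2547 members. Named are the 10 most abundant members, up to 8 per direction between AF and PF and 5 between AF with MNA and AF (smallest p among those past the threshold without overlap), the 3 longest, and the 3 highest of those above 0 in 1 library. MSTRG.17816.1, MSTRG.10504.1, MSTRG.10531.1 and the printed sequences were chosen after values were seen. The members and lists were chosen with earlier results of these data known. Alternatives changed the pseudocount, filter, scaling, trend, fold measure, libraries, block and test.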

Additional observations from a re-analysis of the deposited data

How the results depend on the processing

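Members past the threshold in AF against PF, 65, numbered 106 with all 9 libraries in the fit (4.12%, against 4.06% of all transcripts tested), 28 with the limma coefficient as fold change (1.09%, against 1.4%) and 40 to 90 without single libraries (1.67% to 4.27%, against 2.02% to 3.63%). With a minimum mean of 0.5 FPKM 54 of 522 members passed (10.3%, against 7.6%), and the other fits over all members without a block or scaling gave 68 to 97 (2.37% to 3.77%, against 2.16% to 3.62%). In AF with MNA against AF the 25 became 63 with a pseudocount of 0.1 (2.22%, against 3.03%), 71 with all 9 libraries in the fit (2.5%, against 3.16%), 14 with the coefficient as fold change (0.492%, against 1.07%), 22 to 48 without single libraries (0.78% to 1.84%, against 1.35% to 2.23%), and 47 without AF replicate 3 and AF with MNA replicate 1 (2.91%, against 3.09%), which was chosen after seeing the data. The minimum of 0.5 FPKM gave 21 of 524 (4.01%, against 5.09%) and such other fits 29 to 37 (0.956% to 1.3%, against 1.56% to 2.01%). The cause was not tested. Replicate numbers did not pair the libraries (correlations of same-numbered deviations from -0.0497 to 0.0826). With the replicate number as a block 54 (2.1%, against 2.39%) and 20 (0.703%, against 1.6%) passed, and 2 had an adjusted limma p under 0.05 in AF against PF, MSTRG.44077.1 (0.0465) and MSTRG.47256.1 (0.0103). Without single libraries 0 to 1 had an adjusted limma p under 0.05 in AF against PF; in AF with MNA against AF 0 had one, and 1 without AF replicate 3 and AF with MNA replicate 1. Both are MSTRG.9259.1, whose AF replicate 3 (52.6 FPKM) and AF with MNA replicate 1 (0 FPKM) are the values against the rest of their groups, so their removal tests nothing. Of 28 named coefficients 11 kept their side of the threshold under every alternative run for them, 17 lost it under at least 1, and 0 changed sign. The unmoderated fit lost 12, those of MSTRG.32035.1 and MSTRG.10925.1 in both comparisons, MSTRG.44077.1, MSTRG.47256.1, MSTRG.37998.1, MSTRG.20940.1, MSTRG.11438.1, MSTRG.36744.1 and MSTRG.2831.1 in AF against PF, and MSTRG.19405.1 in AF with MNA against AF. Scaling to the median of all tested transcripts could not be computed, since it is 0 in most libraries; scaling on transcripts above 0 in every library, chosen after seeing the data, gave 74 (2.88%, against 2.7%) and 29 (1.02%, against 1.94%). Few read pairs per member limit values near 0.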
